A study of Homo sapiens with 6 samples.

Results

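Of 23368 gene symbols counted in MDA-MB231 cells, 52 were near-silent with the control siRNA and stood above a higher cut-off after LSD1 knockdown. They were chosen by their own measured values: counts scaled to the library total (CPM) below 0.5 in both control libraries and at least 0.75 in both libraries of siL1 or in both libraries of siL2, with symbols that begin with COL or HIST left out. Since these values picked the genes, their levels against the control are a description and carry no test. With those symbols left out the table held 10302 near-silent genes, so 0.505% of them were switched on in this sense, 35 with siL1 only (0.34%), 11 with siL2 only (0.107%) and 6 with both siRNAs (0.0582%).

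MDA-MB231 is an established human line of triple-negative breast cancer. The groups were siL1 and siL2, which are different siRNAs directed at LSD1, and siControl, a control siRNA, with 2 libraries each from cells transfected with a lipid reagent. All 3 groups thus share the line and the transfection. The labels do not say whether the 2 libraries of a group came from separate cultures, so any p-value here speaks of the spread among these libraries, which may be technical.

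LSD1, encoded by KDM1A, removes methyl groups from lysine 4 of histone H3, a mark of active promoters and enhancers, and it works in complexes with CoREST and histone deacetylases that keep genes of other lineages silent. In other cell types it is known for holding down neuronal genes with the repressor REST, blood stem cell programmes with GFI1, and germline and interferon genes. The question here is which genes that were barely transcribed in the control appeared after knockdown, with which siRNA, and what tissue they are known from.

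Promoter windows from RefSeq, 250 bases before to 50 after the most upstream listed gene start on GRCh38.p14, were found for 35 of the 52 genes. Shown 5′ to 3′ on each gene's own strand are the 4 of the 6 genes switched on by both siRNAs that have one, and PREX1, the gene with the highest CPM in the set. They show how unlike these promoters are in CpG content: OPRL1 at chr20:64079832-64080131 (plus strand) held 54 CpG and PREX1 at chr20:48827950-48828249 (minus strand) 49, AQPEP at chr5:115962225-115962524 (plus strand) held 16, CDSN at chr6:31120397-31120696 (minus strand) 11 and PSG5 at chr19:43186487-43186786 (minus strand) 1. OPRL1 has 3 listed starts, and which of them these cells use is not known. Capitals mark GGGCGG, the GC box, and CAGGTG, an E-box, on either strand, with overlapping matches joined.
OPRL1: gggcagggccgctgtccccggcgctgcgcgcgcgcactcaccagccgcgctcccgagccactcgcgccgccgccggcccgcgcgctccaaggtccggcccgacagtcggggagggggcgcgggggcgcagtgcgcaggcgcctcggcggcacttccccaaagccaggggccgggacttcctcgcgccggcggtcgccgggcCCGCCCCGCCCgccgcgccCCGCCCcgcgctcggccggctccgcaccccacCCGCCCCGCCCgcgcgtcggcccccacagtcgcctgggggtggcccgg
AQPEP: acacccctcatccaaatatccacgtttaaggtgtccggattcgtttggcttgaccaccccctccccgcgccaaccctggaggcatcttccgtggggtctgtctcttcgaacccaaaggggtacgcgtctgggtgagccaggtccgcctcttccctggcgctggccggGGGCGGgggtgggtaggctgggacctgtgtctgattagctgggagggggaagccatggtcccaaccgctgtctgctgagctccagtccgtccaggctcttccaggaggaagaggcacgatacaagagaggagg
PSG5: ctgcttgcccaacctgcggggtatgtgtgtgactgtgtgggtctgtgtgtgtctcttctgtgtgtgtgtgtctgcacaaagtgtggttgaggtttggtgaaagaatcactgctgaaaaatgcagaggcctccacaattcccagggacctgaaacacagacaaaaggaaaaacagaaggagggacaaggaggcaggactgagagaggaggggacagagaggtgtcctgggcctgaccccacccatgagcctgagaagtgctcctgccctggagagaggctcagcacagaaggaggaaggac
CDSN: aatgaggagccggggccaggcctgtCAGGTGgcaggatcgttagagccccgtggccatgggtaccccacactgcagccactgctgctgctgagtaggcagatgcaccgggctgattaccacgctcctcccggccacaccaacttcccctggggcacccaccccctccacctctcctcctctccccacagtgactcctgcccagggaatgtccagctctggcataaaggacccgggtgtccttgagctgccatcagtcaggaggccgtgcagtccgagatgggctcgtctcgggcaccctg
PREX1: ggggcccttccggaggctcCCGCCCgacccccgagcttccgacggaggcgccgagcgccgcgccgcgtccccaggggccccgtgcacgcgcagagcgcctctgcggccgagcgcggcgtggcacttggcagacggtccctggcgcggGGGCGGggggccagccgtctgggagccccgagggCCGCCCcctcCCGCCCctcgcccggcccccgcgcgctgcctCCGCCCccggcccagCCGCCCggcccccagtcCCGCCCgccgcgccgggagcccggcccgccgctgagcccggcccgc

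KDM1A itself stood at 27.7 and 28.1 CPM in the siL1 libraries, 17.4 and 18.1 CPM in the siL2 libraries, and 158 and 165 CPM in the siControl libraries, so the labels match the target. Markers of the line were present in all libraries, among them VIM at 3354 ± 88.1 CPM with siL1, 3637 ± 99.5 CPM with siL2 and 3573 ± 5.11 CPM with siControl (SD, n = 2 each). Another marker, S100A4, was low, at 1.769 and 2.836 CPM with siControl. Of the genes listed as low in the line, the hormone receptors ESR1 and PGR and the basal keratin KRT5 were at 0.0747 CPM or below in each library. CDH1 and KRT14 were at 0.1121 CPM or below. Other genes of that list were not near-silent. With siL1, siL2 and siControl, EPCAM averaged 11.28, 9.45 and 11.48 CPM and FOXA1 3.232, 2.291 and 5.349 CPM. In the same order GATA3 averaged 5.165, 3.696 and 2.676 CPM and ERBB3 3.071, 2.823 and 2.296 CPM. The libraries held 22047738 to 26765079 counts. At that depth 0.5 CPM is 11.02 to 13.38 counts and 0.75 CPM is 16.5 to 20.1 counts, so the step between the cut-offs is a handful of reads, and 3 counts, the limit that a count of 0 allows, is 0.112 to 0.136 CPM. Intervals below are exact 95% intervals on ratios of counts summed over the 2 libraries and scaled by library totals, and they cover counting error only.

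The genes switched on were not silent in the control, and they stayed low after knockdown. Every one had at least 1 count in each siControl library, with 3 to 21 counts over both, and 39 of the 52 already averaged 0.25 CPM or more, a level that 471 of the 10302 near-silent genes reached. Of the 6966 near-silent genes with 0 counts in both control libraries, 0 were switched on, and the highest level that any of them reached in both libraries of a siRNA was 0.510 CPM. Among the genes switched on, 17 reached 1 CPM in both libraries of a siRNA and 1, PREX1, reached 2 CPM, which placed it at rank 11505 of all genes by mean CPM with siL1. In bulk RNA, more transcript in every cell and transcript in a few cells cannot be told apart.

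**Figure D1:**
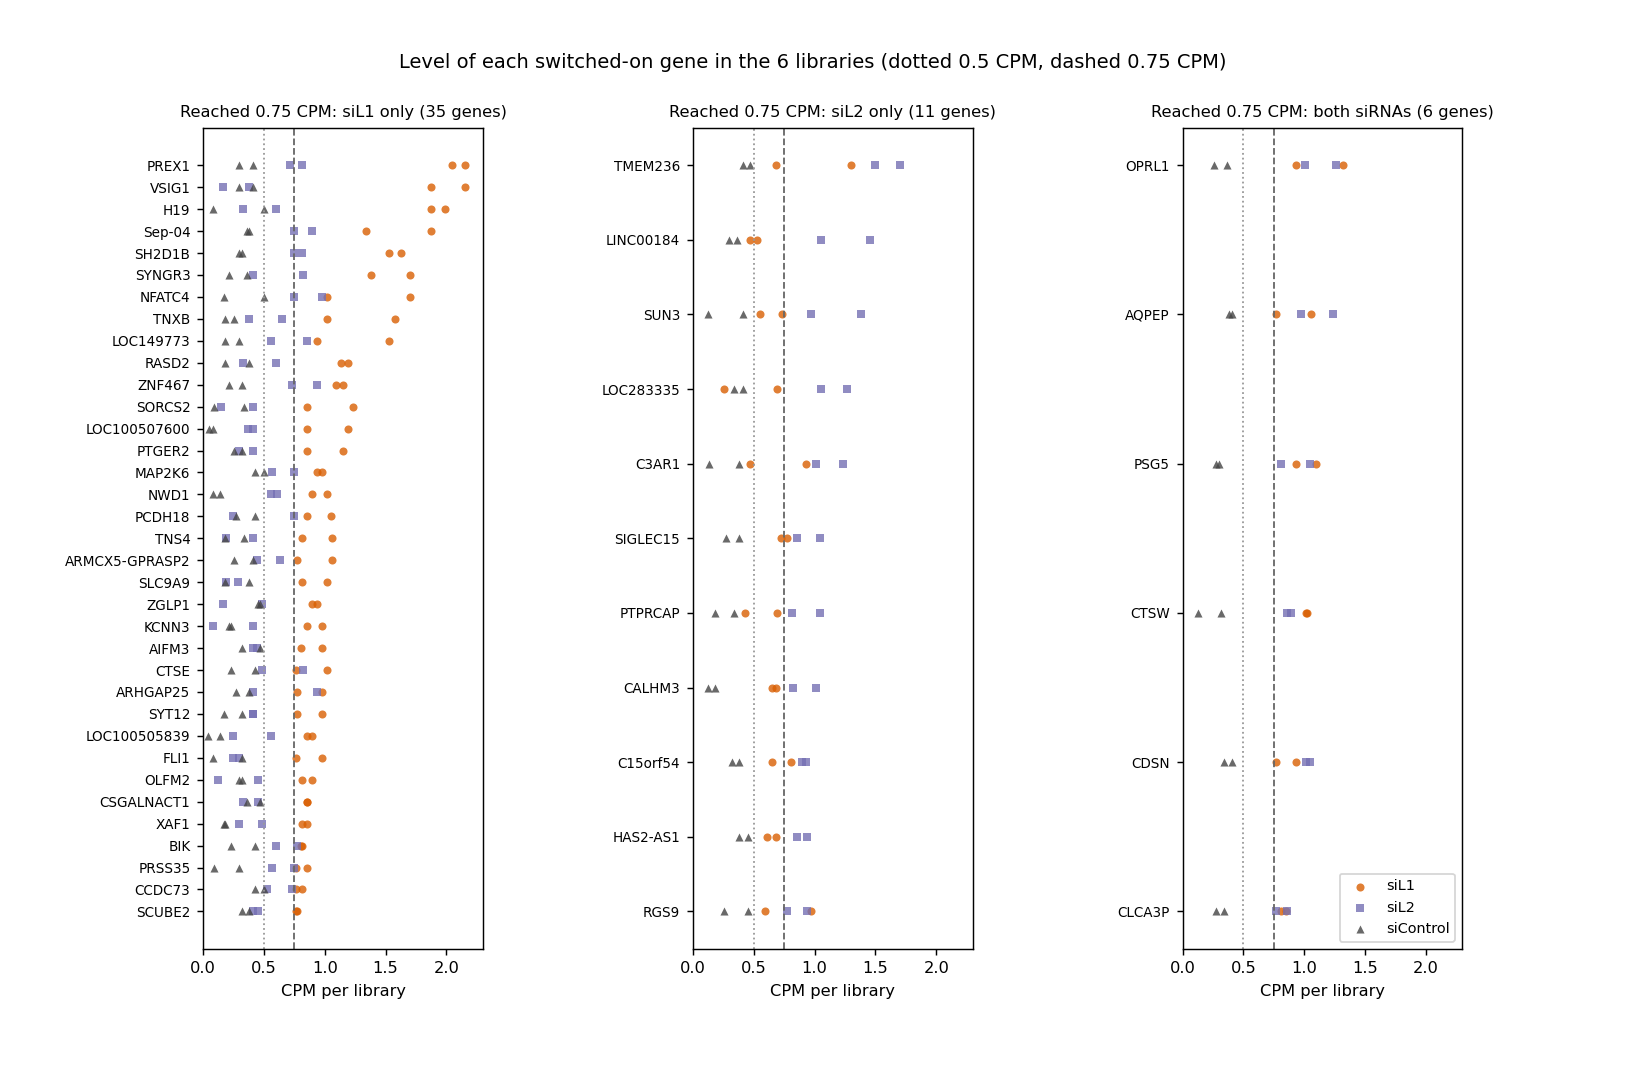
CPM of each of the 52 genes in each of the 6 libraries, 1 row per gene, in the classes siL1 only (35 genes), siL2 only (11) and both (6); circles are siL1, squares siL2 and triangles siControl, and lines mark 0.5 and 0.75 CPM. Triangles lie below 0.5 CPM by the rule, and for most genes of a single-siRNA class the mean of the other siRNA lies between the control and the siRNA that defines the class.

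The class names record a threshold, and the other siRNA often lay between the control and the siRNA that defined the class. In the 35 genes of the siL1-only class, mean CPM ran from 0.768 to 2.10 with siL1 (median 0.937), from 0.235 to 0.861 with siL2 (median 0.461) and from 0.0650 to 0.461 with siControl (median 0.292). Both siL2 libraries lay above both controls for 21 of them, 1 siL2 library reached 0.75 CPM for 10, both siL2 libraries lay below 0.5 CPM for 15, and the siL2 mean lay under the control mean for 5. In the 11 genes of the siL2-only class, mean CPM ran from 0.853 to 1.60 with siL2 (median 0.949), from 0.472 to 0.989 with siL1 (median 0.665) and from 0.154 to 0.437 with siControl (median 0.330). There both siL1 libraries lay above both controls for 10, and 1 siL1 library reached 0.75 CPM for 5. Both siRNAs were set against the same control libraries, so being above them in both comparisons is not counted as agreement between siRNAs.

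The median ratio to siControl was 4.11 in the siL1-only class (1.72 for CCDC73 to 15.5 for LOC100507600) and 3.55 in the siL2-only class (2.15 for HAS2-AS1 to 5.97 for CALHM3). For the genes of both siRNAs it was 3.14 with siL1 and 3.05 with siL2. The largest ratio rested on 3 control counts and had an interval of 4.998 to 77.7. With the rule asked of 1 library of a group in place of 2, it is looser by construction and the 52 genes became 91 without siControl 1, 117 without siControl 2, 82 without siL1-1, 86 without siL1-2, 76 without siL2-1 and 67 without siL2-2, each time with all 52 among them.

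The 6 genes that both siRNAs carried over the cut-off have little in common by function. OPRL1, the G protein-coupled receptor for nociceptin, stood at 1.32 and 0.933 CPM with siL1, 1.01 and 1.26 CPM with siL2, and 0.363 and 0.254 CPM with siControl. AQPEP, now named LVRN, encodes laeverin, a membrane aminopeptidase of the placental trophoblast, and stood at 0.766 and 1.05 CPM with siL1, 1.23 and 0.974 CPM with siL2, and 0.408 and 0.381 CPM with siControl. In both genes the 4 knockdown libraries mingle and, as the rule requires, stand apart from the controls, although the siL1-1 library of AQPEP had only 18 counts against 9 in each control.

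PSG5, a pregnancy-specific glycoprotein secreted by the placenta, had 0.936 and 1.10 CPM with siL1, 1.05 and 0.812 CPM with siL2, and 0.272 and 0.296 CPM with siControl. Its family is near-identical in sequence, and how shared reads were assigned is not given in the sources used here, so the member that a read came from is uncertain. PSG4, its neighbour and not near-silent, had 4.98 and 4.18 CPM with siL1, 6.61 and 5.15 CPM with siL2, and 2.40 and 2.12 CPM with siControl, and PSG6 was at 0 in all 6 libraries. Of the other near-silent family members, PSG2 averaged 0.5238, 0.4506 and 0.1754 CPM with siL1, siL2 and siControl. PSG9 averaged 0.6252, 0.4117 and 0.2192 CPM, and PSG1 0.3141, 0.1591 and 0.06501 CPM. PSG3, PSG7, PSG8, PSG10P and PSG11 had at most 7 counts over all 6 libraries. Laeverin and PSG5 are both known from the placenta, an observation made after the genes were known.

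CTSW, cathepsin W, a cysteine protease of natural killer and cytotoxic T cells, had 1.02 and 1.01 CPM with siL1, 0.859 and 0.893 CPM with siL2, and 0.317 and 0.127 CPM with siControl. CDSN, corneodesmosin, which holds cells of the cornified epidermis together, had 0.766 and 0.933 CPM with siL1, 1.05 and 1.01 CPM with siL2, and 0.408 and 0.339 CPM with siControl. CLCA3P, a pseudogene of the chloride channel accessory family, had 0.808 and 0.852 CPM with siL1, 0.859 and 0.771 CPM with siL2, and 0.272 and 0.339 CPM with siControl. The 4 knockdown libraries of each of the 3 genes lie above the controls, as the rule requires, with the siL2 pair above the siL1 pair for CDSN and below it for CTSW. The ratio of summed counts of CTSW to siControl was 4.65 (2.32 to 10.3) with siL1 and 3.998 (1.99 to 8.90) with siL2. It rests on few control reads: the ratio of mean CPM with siL1 was 4.58, and it was 8.01 without siControl replicate 1 and 3.21 without siControl replicate 2.

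The class of both siRNAs required all 4 knockdown libraries to reach 0.75 CPM, so genes that responded much more to 1 siRNA were sorted into the other classes. The difference between siL2 and siL1 for these 6 genes is therefore a description with no test. By edgeR's quasi-likelihood test over 13322 genes, 46.8% of all genes tested differed between siL2 and siL1 (23.2% higher and 23.7% lower with siL2). Among 829 other tested genes in the range of mean CPM of the 52 genes, 0.447 to 1.07, the shares were 5.55% higher and 9.65% lower. Nothing is read from these shares about the 6 genes.

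The estimates for single genes were wide. AQPEP differed by 0.27 on the log2 scale (95% interval -0.36 to 0.90 from edgeR's fit), CDSN by 0.27 (-0.35 to 0.88), CTSW by -0.22 (-0.88 to 0.43) and PSG5 by -0.13 (-0.75 to 0.48). The intervals ran from -0.62 to 0.62 for OPRL1 and from -0.68 to 0.61 for CLCA3P. Each of the 6 intervals reached 0.62 or more from 0 on at least 1 side, so the genes are not shown to respond alike to the siRNAs.

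**Figure D2:**
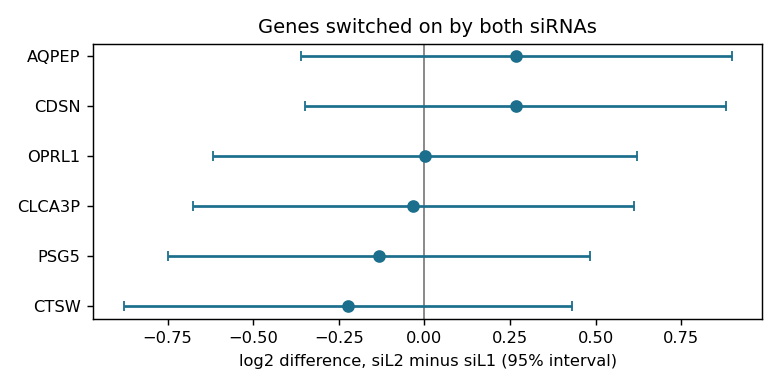
Log2 difference of siL2 minus siL1 for the 6 genes switched on by both siRNAs, with the 95% interval from edgeR's fit; the vertical line is no difference. The estimates, limited by how the class was chosen, run from AQPEP at 0.27 at the top to CTSW at -0.22 at the bottom.

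Receptors and other cell-surface proteins made up 8 of the 52 genes, 4 with siL1 only, 3 with siL2 only and OPRL1 with both. VSIG1, an immunoglobulin-family junction protein of gastric epithelium, had 1.87 and 2.15 CPM with siL1, 0.374 and 0.162 CPM with siL2, and 0.408 and 0.296 CPM with siControl. The siL2 and siControl libraries of VSIG1 overlap, and both siL1 libraries stand far above them. C3AR1, the receptor for the complement fragment C3a on myeloid cells, had 1.23 and 1.01 CPM with siL2, 0.468 and 0.933 CPM with siL1, against 0.136 and 0.381 CPM with siControl, where both siL1 libraries also exceed both controls.

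SIGLEC15, a sialic acid-binding lectin of macrophages and osteoclasts, had 1.05 and 0.852 CPM with siL2, 0.723 and 0.771 CPM with siL1, against 0.272 and 0.381 CPM with siControl. PTPRCAP, a lymphocyte protein that associates with the phosphatase CD45, had 1.05 and 0.812 CPM with siL2, 0.425 and 0.690 CPM with siL1, against 0.181 and 0.339 CPM with siControl. The siL1 libraries of SIGLEC15 lie on either side of the cut-off, so its class turned on 1 count. PTGER2 (a prostaglandin E2 receptor), SORCS2 (a sorting receptor for neurotrophin precursors) and the protocadherin PCDH18 averaged 1.00, 1.04 and 0.953 CPM with siL1, 0.352, 0.278 and 0.495 CPM with siL2, and 0.286, 0.215 and 0.348 CPM with siControl.

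Signalling enzymes and adaptors numbered 7, of which 6 belonged to siL1 only and RGS9 to siL2 only. PREX1, an exchange factor that activates the GTPase Rac downstream of phosphoinositides and G protein-coupled receptors, had 2.04 and 2.15 CPM with siL1, 0.710 and 0.812 CPM with siL2, and 0.408 and 0.296 CPM with siControl. SH2D1B, the adaptor EAT-2 of natural killer cells, had 1.53 and 1.62 CPM with siL1, 0.747 and 0.812 CPM with siL2, and 0.317 and 0.296 CPM with siControl. In both genes the siL2 libraries lie between the siL1 and the siControl libraries, without overlap of the groups.

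RASD2, a small GTPase of the striatum known as Rhes, had 1.19 and 1.14 CPM with siL1, 0.598 and 0.325 CPM with siL2, and 0.181 and 0.381 CPM with siControl, and here siL2 and siControl overlap. The p38 kinase activator MAP2K6, the Rac inhibitor ARHGAP25 of blood cells and the focal adhesion protein TNS4 averaged 0.955, 0.875 and 0.937 CPM with siL1, 0.658, 0.670 and 0.296 CPM with siL2, and 0.461, 0.327 and 0.260 CPM with siControl. RGS9, which shuts off G proteins in photoreceptors and striatum, averaged 0.853 ± 0.115 CPM with siL2, 0.785 ± 0.267 CPM with siL1, against 0.354 ± 0.141 CPM with siControl (SD, n = 2 each). The siL1 and siL2 libraries of RGS9 overlap, so its place in the siL2-only class comes from 1 siL1 library of 0.595 CPM.

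All 4 DNA-binding factors were in the siL1-only class. NFATC4, a calcium-regulated transcription factor, had 1.02 and 1.70 CPM with siL1, 0.747 and 0.974 CPM with siL2, and 0.499 and 0.169 CPM with siControl, with libraries of a group that differ widely. FLI1, an ETS factor of blood and endothelial development, averaged 0.870 ± 0.147 CPM with siL1, 0.271 ± 0.0392 CPM with siL2 and 0.201 ± 0.165 CPM with siControl (SD, n = 2 each). The zinc finger gene ZNF467 averaged 1.12, 0.832 and 0.265 CPM with siL1, siL2 and siControl, and ZGLP1, a GATA-like factor that directs oogenesis in the mouse, averaged 0.913, 0.324 and 0.460 CPM.

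Proteases numbered 4: CTSW and AQPEP above, and CTSE and PRSS35 with siL1 only. CTSE, an aspartic protease of stomach and immune cells, averaged 0.890 CPM with siL1, 0.655 CPM with siL2 and 0.325 CPM with siControl. PRSS35, a serine protease-like secreted protein, averaged 0.809 CPM with siL1, 0.658 CPM with siL2 and 0.194 CPM with siControl. Both genes had 1 siL2 library near or past the upper cut-off.

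The secreted, matrix and glycan genes numbered 6, with PSG5 and CDSN in the class of both siRNAs. TNXB, the matrix glycoprotein tenascin X, had 1.57 and 1.01 CPM with siL1, 0.374 and 0.649 CPM with siL2, and 0.181 and 0.254 CPM with siControl, and its 3 groups do not overlap. SCUBE2 (which releases Hedgehog ligands), OLFM2 (an olfactomedin) and CSGALNACT1 (which starts chondroitin sulfate chains) averaged 0.768, 0.852 and 0.851 CPM with siL1, 0.427, 0.285 and 0.387 CPM with siL2, and 0.349, 0.307 and 0.414 CPM with siControl. For OLFM2 and CSGALNACT1 the siL2 mean is below that of siControl.

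Channels, transporters and vesicle proteins numbered 5. SYNGR3, a synaptic vesicle protein, had 1.70 and 1.38 CPM with siL1, 0.822 and 0.406 CPM with siL2, and 0.363 and 0.212 CPM with siControl. CALHM3, a subunit of the ion channel through which taste cells release ATP, had 0.822 and 1.01 CPM with siL2, 0.681 and 0.649 CPM with siL1, against 0.181 and 0.127 CPM with siControl. For CALHM3 both knockdown pairs stand clear of the controls, and the ratio to siControl was 5.97 (2.68 to 15.6) with siL2 and 4.34 (1.88 to 11.6) with siL1. The calcium-activated potassium channel KCNN3, the endosomal sodium-proton exchanger SLC9A9 and the synaptotagmin SYT12 averaged 0.912, 0.916 and 0.875 CPM with siL1, 0.246, 0.235 and 0.408 CPM with siL2, and 0.219, 0.281 and 0.243 CPM with siControl.

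The 3 cell death genes were all in the siL1-only class. XAF1, an interferon-induced protein that counters the caspase inhibitor XIAP, had 0.851 and 0.811 CPM with siL1, 0.299 and 0.487 CPM with siL2, and 0.181 and 0.169 CPM with siControl. BIK, a BH3-only protein that promotes apoptosis, averaged 0.810 CPM with siL1, 0.684 CPM with siL2 and 0.325 CPM with siControl, and AIFM3, a relative of apoptosis-inducing factor, averaged 0.891 CPM with siL1, 0.429 CPM with siL2 and 0.392 CPM with siControl. XAF1 and BIK each kept their 3 groups apart, although the siL2 libraries of XAF1 rest on 8 and 12 counts. The siL2-2 library of BIK, at 0.771 CPM, passed the upper cut-off.

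Non-coding RNAs and a pseudogene made up 9 of the 52 genes, 4 with siL1 only, 4 with siL2 only and CLCA3P with both. H19, an imprinted RNA expressed in the fetus and placenta from the maternal copy, had 1.87 and 1.99 CPM with siL1, 0.598 and 0.325 CPM with siL2, and 0.499 and 0.0847 CPM with siControl. Its control libraries, at 11 and 2 counts, differ widely and overlap with siL2. LOC149773, now named APCDD1L-DT and transcribed away from APCDD1L, had 1.53 and 0.933 CPM with siL1, 0.560 and 0.852 CPM with siL2, and 0.181 and 0.296 CPM with siControl.

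LOC100507600 (now LCT-AS1) and LOC100505839 (now SH3PXD2A-AS1), both antisense to a gene, had the lowest control levels of the set at 3 and 4 counts over both libraries. They averaged 1.02 and 0.873 CPM with siL1, 0.388 and 0.402 CPM with siL2, and 0.0650 and 0.0892 CPM with siControl. LINC00184 had 1.46 and 1.06 CPM with siL2, 0.468 and 0.527 CPM with siL1, against 0.363 and 0.296 CPM with siControl. The siL1 libraries of LINC00184 lie under both siL2 libraries and above both controls.

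LOC283335 (now TNS2-AS1) had 1.27 and 1.06 CPM with siL2, 0.255 and 0.690 CPM with siL1, against 0.408 and 0.339 CPM with siControl. C15orf54 (now LINC02915) had 0.897 and 0.934 CPM with siL2, 0.808 and 0.649 CPM with siL1, against 0.317 and 0.381 CPM with siControl. HAS2-AS1, antisense to the hyaluronan synthase HAS2, had 0.934 and 0.852 CPM with siL2, 0.681 and 0.609 CPM with siL1, against 0.454 and 0.381 CPM with siControl. The siL1 libraries enclose the controls for LOC283335 and lie above them for C15orf54 and HAS2-AS1.

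The remaining 6 genes have other or little-known functions. TMEM236, a membrane protein of little-known function, had 1.49 and 1.70 CPM with siL2, 0.681 and 1.298 CPM with siL1, against 0.408 and 0.466 CPM with siControl. SUN3, a nuclear envelope protein of spermatids, had 1.38 and 0.974 CPM with siL2, 0.553 and 0.730 CPM with siL1, against 0.408 and 0.127 CPM with siControl. In both genes all 4 knockdown libraries lie above the controls.

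The symbol listed as Sep-04, a date form among 15 such symbols in the table whose gene name was not resolved here, had 1.87 and 1.34 CPM with siL1, 0.747 and 0.893 CPM with siL2, and 0.363 and 0.381 CPM with siControl. NWD1, a protein with a nucleotide-binding domain and WD repeats, averaged 0.954 CPM with siL1, 0.585 CPM with siL2 and 0.110 CPM with siControl, where 5 counts were found over both libraries. The read-through transcript ARMCX5-GPRASP2 averaged 0.917, 0.541 and 0.331 CPM with siL1, siL2 and siControl, and the coiled-coil gene CCDC73 averaged 0.789, 0.627 and 0.461 CPM. CCDC73 is the weakest member, at a ratio of 1.72 with an interval of 0.982 to 3.08.

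Because CPM takes no account of transcript length, the order of genes above is not an order of expression. For the 49 genes with an exon length in GENCODE v29 (median 3194 bases), CPM per kilobase of exon gave another order. With siL1 it was highest for BIK at 0.850 and H19 at 0.822 CPM per kilobase among the siL1-only genes, and PREX1 stood at 0.316. With siL2 it was highest among the siL2-only genes for SUN3 at 0.752, followed by PTPRCAP at 0.719, and among the genes of both siRNAs for CTSW at 0.634. KCNN3 (0.0671) and MAP2K6 (0.0699), which have the long exon totals of 13598 and 13657 bases, were lowest with siL1.

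The direction of the crossings differed between the siRNAs in number. Turned round, to below 0.5 CPM in both libraries of a siRNA and at least 0.75 CPM in both controls, the rule found 9 genes switched off with siL1 beside 41 switched on, 15 switched off with siL2 beside 17 switched on, and 0 switched off with both. The bases differed: 10302 near-silent genes could be switched on, and 12225 genes at or above 0.75 CPM in both controls could be switched off. The on and off counts are thus not shares of the same set, although each base is the same for siL1 and siL2. With no gap between the cut-offs, at 0.5 CPM, siL1 switched on 134 genes and off 40, and siL2 switched on 91 and off 51. With an upper cut-off of 1 CPM it was 11 on and 1 off with siL1 and 6 on and 6 off with siL2. The excess of switched-on over switched-off genes was thus larger in number with siL1 at each of these cut-offs, a difference that was not tested.

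**Figure D3:**
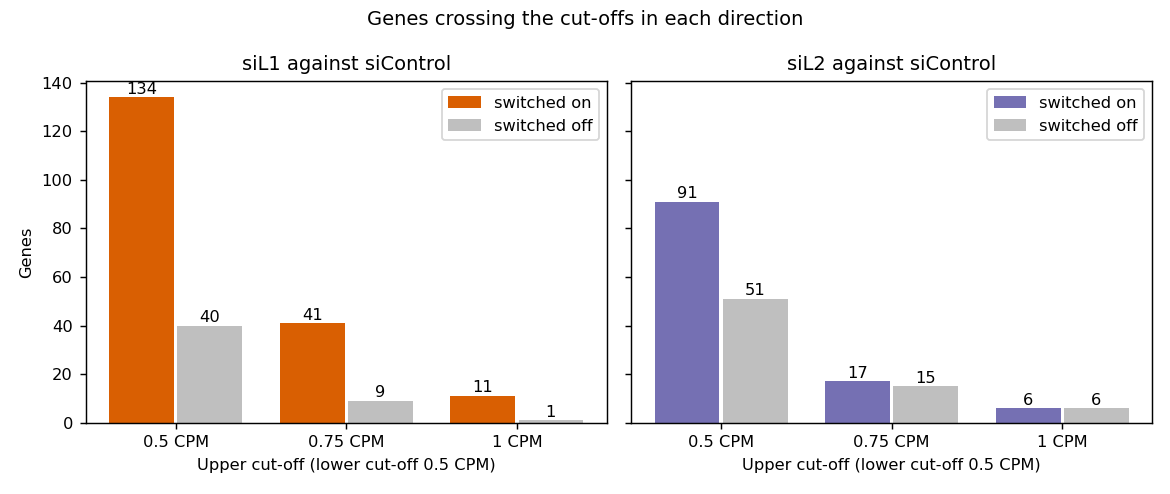
Number of genes crossing from below 0.5 CPM to at least the upper cut-off on the x axis (switched on) or back (switched off), for siL1 and siL2 against siControl. At 0.75 CPM the bars stand at 41 on and 9 off with siL1, and at 17 on and 15 off with siL2.

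All 52 genes passed the edgeR filter on low counts, which genes high in a single group can pass, and were among the 13322 tested. It called 39 of the 41 genes of siL1 higher than siControl, where 24.7% of all genes were called higher, 25.7% lower and 50.4% either way. It called 17 of the 17 genes of siL2 higher, where 22.6% were called higher, 23.3% lower and 45.8% either way. Among the 829 other tested genes in the same range of mean CPM, 11.9% were higher and 4.22% lower with siL1, and 6.39% were higher and 5.19% lower with siL2. The rule used these contrasts, so the counts are no support for the genes. CCDC73 and ZGLP1 were not called, and DESeq2 called 24 of the 41 and 11 of the 17. In the authors' deposited table, an adjusted p below 0.05 was listed for 26 of the 41 genes with siL1, beside 4989 of all 17202 genes with a value, and for 12 of the 17 with siL2, beside 4504 of 17161.

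The 13 lists of genes that define other tissues or programmes held 3 of the 52 genes (5.77%), beside 3.28% of all near-silent genes. Of these lists, 10 held 0 of the 52 genes. The other 3 held 1 each, CDSN among 30 near-silent epithelial and skin genes, PSG5 among 25 gonadal, endocrine and placental genes, and XAF1 among 15 interferon-induced genes. Together the lists held 338 near-silent genes, of which these 3 were 0.888%, beside the 0.505% of all near-silent genes. None of 33 neuronal and synaptic genes, 21 neuronal genes bound by REST, 37 germline and cancer-testis genes or 33 muscle and heart genes was switched on. Of these, 15, 7, 27 and 19 had 0 counts in both control libraries, a level from which no gene was switched on. SYNGR3, RASD2 and RGS9, known from synapses or striatum, are among the 52 genes but on none of the lists. The absence of a programme is not read from these counts.

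Several of the 52 genes are known from blood cells, namely SH2D1B, CTSW, PTPRCAP, C3AR1, SIGLEC15, ARHGAP25 and FLI1, a grouping made after the genes were known. The fixed list of 49 blood and immune markers had 43 near-silent genes and 0 of them was switched on. Of the list, 27 genes had 0 counts in both control libraries. Of the 49, 23 were at 0 in all 6 libraries, among them CD3G, CD2 and MS4A1, and the pan-leukocyte gene PTPRC was at 0 with siL1 and siControl and at 0.0374 and 0.0406 CPM with siL2. Other near-silent genes of the list had more reads. CSF1R averaged 0.6455, 0.5521 and 0.2419 CPM with siL1, siL2 and siControl, CD14 0.4155, 0.1965 and 0.1754 CPM, and ITGAX 0.3354, 0.05604 and 0.04536 CPM. Means were highest with siControl for CYBB (0.3517, 0.1153 and 0.3689 CPM) and ITGAM (0.0831, 0.09663 and 0.1527 CPM). Without its 3 most abundant genes, the lysosomal genes LAPTM5 and CD68 and the integrin ITGB2, the list summed to 5.48 to 5.96 CPM with siL1, 3.77 to 4.63 CPM with siL2 and 4.08 to 4.61 CPM with siControl. The whole list summed to 477 to 480 CPM with siL1, 444 to 449 CPM with siL2 and 348 to 362 CPM with siControl, of which LAPTM5 was 242, 160.0 and 128 CPM on average. In the same order CD68 averaged 214.5, 269.9 and 217.8 CPM. ITGB2, a gene not near-silent in the control, averaged 15.65 CPM with siL1, 12.3 CPM with siL2 and 4.74 CPM with siControl. Whether blood cell transcripts as a group moved with these 7 genes was not tested.

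By symbol family, 7 of 2691 near-silent non-coding RNAs were switched on (0.26%), 3 of 142 proteases and serpins (2.11%), 2 of 567 G protein-coupled receptors (0.353%), 1 of 185 ion channel subunits (0.541%) and 1 of 159 solute carriers (0.629%). The families of homeobox, SOX, FOX, PAX, TBX and GATA factors, with 125 near-silent genes, of keratins with 143, and of interleukins, chemokines and TNF members with 130, held 0. The share of all near-silent genes was 0.505%. Families were matched by the form of the symbol alone, so the shares do not cover every gene of a kind. C3AR1 is not counted among the receptors, nor CALHM3 among the channel subunits. AQPEP is likewise missing from the proteases and C15orf54 from the non-coding RNAs. No gene with 0 counts in both control libraries was switched on. Such genes numbered 2013 of the non-coding RNAs, 98 of the proteases and serpins, 485 of the receptors and 107 of the channel subunits. They numbered 83 of the solute carriers, 92 of the homeobox to GATA factors, 124 of the keratins and 97 of the interleukins, chemokines and TNF members. Of the 51 genes found in RefSeq, 42 code for protein, or 82.4%, beside 66.4% of all near-silent genes and 73.2% of those with a control mean of at least 0.25 CPM. These shares are descriptions, with no test.

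Some of the counts may belong to an overlapping gene. Of the 51 genes placed, 18 (35.3%) overlap another gene, beside 42.8% of the near-silent genes with a control mean of at least 0.25 CPM. Overlap here means that whole gene spans in RefSeq meet, introns included and on either strand, and not that counted exons do. The strand setting of the counting is not given in the sources used here, so whether a pair shares counted reads is not known. LOC149773 overlaps APCDD1L, which averaged 11.2 CPM with siL1, 4.10 CPM with siL2 and 3.27 CPM with siControl and was higher with siL1 (log2 fold change 1.78, edgeR adjusted p = 7.31e-07). LOC100505839 overlaps SH3PXD2A, which averaged 49.6, 67.9 and 39.2 CPM with siL1, siL2 and siControl. The mean of SH3PXD2A was highest with siL2 and that of its antisense RNA with siL1.

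PTPRCAP overlaps CORO1B, an actin regulator at 166 CPM with siL1, 183 CPM with siL2 and 145 CPM with siControl. SIGLEC15 overlaps the autophagy gene EPG5 at 145, 181 and 137 CPM, CTSW overlaps FIBP at 95.3, 99.6 and 90.6 CPM, and H19 overlaps MRPL23, a mitochondrial ribosomal protein gene, at 33.6, 32.9 and 34.0 CPM with siL1, siL2 and siControl. The partner of H19 hardly differs between groups, while those of PTPRCAP and SIGLEC15 are highest with siL2, as these genes are. So are TENC1, overlapping LOC283335, at 43.25, 55.17 and 44.31 CPM, and HAS2, overlapping HAS2-AS1, at 42.03, 45.52 and 35.85 CPM. LCT, overlapping LOC100507600, was highest with siL1 (0.3131, 0.03736 and 0.04233 CPM), as that gene was. Other partners did not follow the class: EIF3M and PRRG4 of CCDC73 were highest with siControl, and C7orf57 of SUN3 with siL1. Whether reads of the partner contribute to the near-silent gene was not tested.

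For every gene placed, the genes before and after it in order of gene start were looked up as neighbours. A neighbour can overlap the gene, so the counts here include overlap partners given above. Among these are APCDD1L, SH3PXD2A, CORO1B, EPG5, FIBP, TENC1 and HAS2. With siL1, 20 of 50 tested neighbours were higher, beside 24.7% of all genes, and 9 were lower, beside 25.7%, and with siL2, 7 of 25 were higher, beside 22.6%, and 7 lower, beside 23.3%. The neighbours named here were chosen after their values were seen. NYNRIN, beside NFATC4, stood at 4.84 CPM with siL1, 1.79 CPM with siL2 and 0.679 CPM with siControl (log2 fold change 2.83 with siL1, edgeR adjusted p = 3.40e-07). The kinase gene UHMK1 beside SH2D1B averaged 438, 447 and 118 CPM, and IGFBP4, a binding protein of insulin-like growth factors beside TNS4, averaged 488, 403 and 232 CPM with siL1, siL2 and siControl. The distance to a neighbour was not limited, and the difference from all genes was not tested.

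In the 35 promoter windows, the ratio of observed to expected CpG had a median of 0.407, with 0.501 over 22 siL1-only genes, 0.369 over 9 siL2-only genes and 0.449 over 4 genes of both siRNAs. It was 0.347 over all near-silent genes, 0.658 over those with a control mean of at least 0.25 CPM and 0.761 over all genes of the table. A ratio of at least 0.6 was found in 12 of the 35 windows (34.3%), beside 32.6%, 54.6% and 65.3% of those sets. Since only 67.3% of the 52 genes have a window, under the 80% asked of such a check, the comparison is void as a statement about the set and is given for the genes found.

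**Figure D4:**
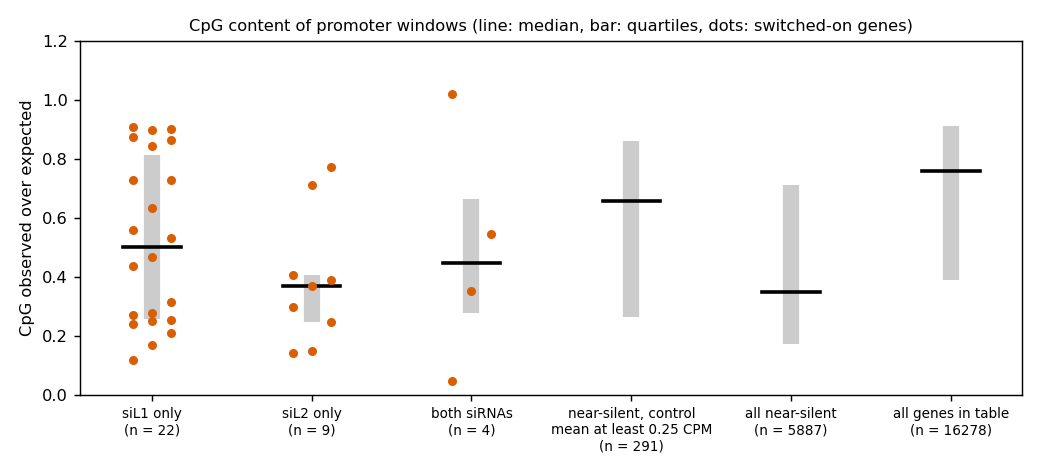
Observed over expected CpG in the promoter windows of the genes of each class (dots), with median (line) and quartiles (grey bar), beside near-silent genes with a control mean of at least 0.25 CPM, all near-silent genes and all genes of the table. The dots range from PSG5 at 0.0474 to OPRL1 at 1.02.

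Motifs were searched on both strands. GGGCGG was found in 19 of the 35 windows (54.3%), with 5 matches in the OPRL1 sequence and 7 in that of PREX1 printed above. It was in 35.8% of near-silent genes, 49.1% of those with a control mean of at least 0.25 CPM and 57.9% of all. CAGGTG, an E-box that SNAI factors bind, was found in 7 of the 35, among them CDSN, H19 and C3AR1. In the same sets it was in 1389 of 5887, 68 of 291 and 3249 of 16278. TGANTCA, the AP-1 site, was in 5 (14.3%, beside 8.6%, 6.53% and 5.9% of those sets), and TATAAA in 2 (5.71%, beside 16.5%, 9.62% and 9.54%). TNAAGGTCA, the site of ERR nuclear receptors, and AAATCAC, a site of GFI1, were in 0 (beside 0.694% and 2.38% of all promoters). A match says only that the letters are there.

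The 3′ UTRs of 41 of the 52 genes, which is under 80% of them, could be searched in GENCODE v29. TACATTT or ACATTTA, heptamers chosen with earlier results of these data known, was in 12 of the 41 (29.3%), beside 30.7% of near-silent genes with a control mean of at least 0.25 CPM and 34.9% of all genes tested. It was in 11 of 29 siL1-only genes (37.9%), among them PREX1, VSIG1 and SH2D1B, in 0 of 7 siL2-only genes and in 1 of 5 of both, AQPEP. The other heptamers searched were GTTACAA, in 5 of the 41 (12.2%), beside 7.60% of near-silent genes with a control mean of at least 0.25 CPM and 9.49% of all genes tested, and ACAGAGC, in 7 of the 41 (17.1%), beside 14.3% and 17.8%. GTTACAA was in 5 of 29 siL1-only genes, 0 of 7 siL2-only genes and 0 of 5 of both, and ACAGAGC in 5 of 29, 0 of 7 and 2 of 5. The median length of the 3′ UTR was 1763 bases in the siL1-only and 372 bases in the siL2-only genes, and its part in the difference was not tested.

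Genes close to the cut-offs show how near the edge some members lie. Just inside the lower cut-off, H19, CCDC73 and NFATC4 had 0.499 CPM in their higher control library, and just outside it DHRS3, KCNK3 and KIF5C had 0.508 CPM. Just inside the upper cut-off, CTSE, FLI1 and CCDC73 had 0.766 CPM in the lower library of the better siRNA, and just outside it ROBO2, C1orf116 and ARHGEF5 had 0.747 CPM. The genes just outside missed a cut-off by 1 count in 1 library.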

How the data were processed

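RNA-seq of 6 libraries was used. Per the submitters' processing notes, reads were aligned with TopHat 1.3.3 to hg19, counted with HTSeq and compared with DESeq; the annotation and strand setting are not given in the sources used here. The deposited table gives raw counts per gene symbol and library. It also holds fold changes that the authors gave as linear ratios of siRNA to control, and the p-values, adjusted, that the authors gave for them. Here CPM was computed from column totals, 22047738 to 26765079 counts per library. SDs are over the 2 libraries of a group, and ratio intervals are exact binomial intervals on summed counts.

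The 52 genes and all lists were chosen with earlier results of these data known, and the functional groups after the genes were known. Per-library values are given for the 10 genes of each class with the highest mean CPM and for genes on a list, means for the rest, and other genes named were picked as neighbours, markers or genes at the cut-offs.

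Tests used edgeR 4.0.16 and limma 3.58.1 in R 4.3.3: filterByExpr by group (13322 genes kept, 10046 left out), TMM, glmQLFit on all 6 libraries with no term but group (3 residual degrees of freedom), glmQLFTest, two-sided, Benjamini-Hochberg over all genes tested, threshold 0.05. The steps were tested on simulated data. The test of siL2 against siL1 planned for the genes of both siRNAs is not used, since the class was chosen on both. DESeq2 1.42.0, limma-voom, other scalings, filters, cut-offs and left-out libraries were alternatives. Python 3.11.15 with pandas 2.3.3, numpy 2.4.6, scipy 1.17.1 and matplotlib 3.10.9 did the rest.

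Replicates of a group differed by more than sampling noise (chi-square per degree of freedom 3.13 to 3.37), so none was treated as 1 library deposited again; whether they are separate cultures is not given. Promoters are from RefSeq on GRCh38.p14 and 3′ UTRs and exon lengths from GENCODE v29, joined to the hg19 counts by symbol; coordinates of the counts themselves were not used.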

Additional observations from a re-analysis of the deposited data

How the results depend on the processing

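The number of genes switched on depended on the cut-offs, since most members lie close to them. Below 0.3 CPM in the controls and at least 0.75 CPM after knockdown, 10 genes remained of the 52 (8 with siL1 only, 1 with siL2 only, 1 with both), and the switched-off genes were 0 with siL1 and 3 with siL2. With an upper cut-off of 1 CPM there were 17 (11, 6 and 0), with 1 switched off with siL1 and 6 with siL2. With 0.5 CPM as both cut-offs there were 179 (88, 45 and 46), with 40 and 51 switched off. TMM sizes in place of column totals kept 48 of the 52, DESeq2 size factors kept all 52, and keeping COL and HIST symbols gave 53.

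Asking the rule of 1 library in the group with a library left out makes it looser by construction. The total then ranged from 67 to 117, siL1 only from 29 to 69, siL2 only from 7 to 35 and both from 7 to 26, with all 52 genes included each time but some in another class. The genes switched off ranged from 9 to 27 with siL1 and from 15 to 43 with siL2.

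Counts of members called higher, a direction the rule fixes, were followed under alternatives chosen after seeing the data. DESeq2 called 24 of 41 with siL1 and 11 of 17 with siL2, against 39 and 17 in edgeR; the cause was not tested. With a library left out the ranges were 26 to 40 and 14 to 17.

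The replicate numbers come from the titles, and nothing in the labels says that they mark a shared culture or day. Deviations of same-numbered libraries correlated at 0.347 (siL1 and siControl), 0.453 (siL2 and siControl) and 0.405 (siL2 and siL1) over 10435 genes, but with 2 pairs this does not establish pairing. With the replicate number as a block the calls over all genes were 8036, 7610 and 7700 in those comparisons, and of the members 40 with siL1 and 17 with siL2.

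The step between the cut-offs is about 6 counts, so a gene near either cut-off changes class with 1 or 2 reads.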

Other observations

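Genes that crossed the cut-offs the other way were chosen after their values were seen. The highest control values among those named here, of RAB39A, BSN and RGS16, lie above 2.15 CPM, the highest value of a switched-on gene in any library. BSN, which encodes the presynaptic scaffold bassoon, had 0.425 and 0.446 CPM with siL1, 0.598 and 0.528 CPM with siL2, and 2.31 and 1.57 CPM with siControl. SOX7, a transcription factor of endothelial development, had 0.383 and 0.203 CPM with siL1, 0.598 and 0.568 CPM with siL2, and 0.998 and 0.889 CPM with siControl. For both genes the siL2 libraries also lie under the controls.

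With siL2, RAB39A, a small GTPase of endosomal traffic, had 0.411 and 0.365 CPM, beside 1.45 and 1.01 CPM with siL1, against 3.08 and 2.96 CPM with siControl. RGS16, an inhibitor of G protein signalling, had 0.486 and 0.244 CPM with siL2, 1.06 and 0.852 CPM with siL1, against 2.04 and 2.24 CPM with siControl. The endothelin receptor gene EDNRA had 0.448 and 0.284 CPM with siL2, 1.15 and 1.05 CPM with siL1, against 1.04 and 1.10 CPM with siControl, where siL1 and siControl overlap. All values are descriptions of genes picked by the same cut-offs, and no test was made.

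COL16A1, a fibril-associated collagen gene, was the only gene that met the cut-offs and was left out for its symbol. It had 1.36 and 1.10 CPM with siL1, 0.635 and 0.852 CPM with siL2, and 0.454 and 0.466 CPM with siControl, which is the siL1-only pattern.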
